A study of Mus musculus with 4 samples.

Results

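The genes of fatty acid uptake and oxidation were examined in ureters of control and *Pparg-cKO* mice. The 36 members were chosen by gene name, from the steps that carry a fatty acid into a cell, activate it and oxidize it, and many of them are known targets of the PPAR family. All 36 were found on the array with 49 probes, among 29924 gene names with 39429 probes in all, and each had a probe bright enough to be tested, among 20523 genes tested.

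Ureters of NMRI outbred mice were explanted at P0 and kept for 8 days in culture medium with DMSO, the solvent, or with 2 µM purmorphamine, an agonist of the SHH signaling pathway. *Pparg-cKO* animals were *Pax2-cre/+; Pparg (fl/fl)*. Controls were littermates that carried a floxed *Pparg* allele but no cre, so that the cre transgene itself was present in the mutants only. *Pax2-cre* recombines in the nephric duct, the ureteric epithelium and the collecting duct system, and an explant also holds muscle, connective tissue, vessels and attached cells in which *Pparg* was left intact. On each of the 4 arrays, DMSO and purmorphamine pools of the same genotype and sex were hybridized together, which gave 4 groups of 2 pools. The male pools were replicate 1 and the female pools replicate 2, and the dyes were exchanged between them, so that sex and dye cannot be told apart. Values of a group are given with the male pool first. Between 66.3% and 70.5% of the spots of a channel were well above background and 0 spots were saturated. All values below are log2 intensities after background correction and normalization, or differences between them, and a level is compared only with the level of the same probe in another pool. Because whole explants were measured, fewer cells of a type and less RNA per cell cannot be told apart.

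Long-chain fatty acids are freed from circulating lipid at the vessel wall, cross the plasma membrane with the help of transport proteins, are bound in the cytosol and are coupled to coenzyme A. They are then stored as triglyceride in lipid droplets or carried into mitochondria as carnitine esters, where each round of beta-oxidation removes a piece of the chain and passes electrons to the respiratory chain. PPARA, PPARD and PPARG are nuclear receptors that bind fatty acids and their derivatives and, as dimers with RXR, switch on genes of this pathway. They bind DNA at repeats of the motif AGGTCA with a single base between. PPARG is best known for the fat cell, and in the urothelium it is known for its part in the differentiation of superficial cells.

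The *Pparg* probe itself did not check the genotype, since the deletion of exons 2 and 3 leaves a transcript. Its level was 14.79 and 15.31 in the control DMSO pools and 15.55 and 15.58 in the *Pparg-cKO* DMSO pools. With purmorphamine, it was 15.10 and 15.18 in the control pools and 15.95 and 16.10 in the *Pparg-cKO* pools. All 4 *Pparg-cKO* pools were thus above all 4 control pools, and the difference did not pass the test under DMSO (log2 fold change 0.51, limma adjusted p = 0.204) or under purmorphamine (0.89, adjusted p = 0.0507).

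The promoters of *Plin5*, *Ehhadh* and *Pdk4* are shown because these were the 3 members that fell in *Pparg-cKO* ureters under both treatments. RefSeq windows from 250 bases before to 50 bases after the annotated start (build GRCm38.p6) were at hand for 29 of the 36 members. Each is written on the strand of the gene, and capitals mark every match to AGGNCA, a relaxed form of the receptor half-site, on either strand. The windows are chr17:56117499-56117798 (minus strand) for *Plin5*, chr16:21787785-21788084 (minus strand) for *Ehhadh* and chr6:5496229-5496528 (minus strand) for *Pdk4*.
Plin5: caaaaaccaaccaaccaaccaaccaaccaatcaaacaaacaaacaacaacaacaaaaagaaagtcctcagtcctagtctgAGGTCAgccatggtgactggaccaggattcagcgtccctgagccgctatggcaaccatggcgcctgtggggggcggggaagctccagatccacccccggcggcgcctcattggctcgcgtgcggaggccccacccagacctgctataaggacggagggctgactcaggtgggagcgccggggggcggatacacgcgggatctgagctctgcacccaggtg
Ehhadh: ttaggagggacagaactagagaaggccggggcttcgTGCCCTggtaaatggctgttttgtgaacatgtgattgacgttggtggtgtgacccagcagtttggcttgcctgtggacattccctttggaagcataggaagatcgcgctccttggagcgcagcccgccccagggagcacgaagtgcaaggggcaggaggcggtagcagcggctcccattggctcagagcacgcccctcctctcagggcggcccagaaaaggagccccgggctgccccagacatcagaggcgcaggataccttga
Pdk4: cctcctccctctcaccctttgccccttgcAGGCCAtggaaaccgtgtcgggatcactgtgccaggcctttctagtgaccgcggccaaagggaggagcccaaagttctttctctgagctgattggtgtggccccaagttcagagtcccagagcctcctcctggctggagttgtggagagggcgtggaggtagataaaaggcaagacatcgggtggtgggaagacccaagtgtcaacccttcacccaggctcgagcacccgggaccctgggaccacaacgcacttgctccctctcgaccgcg
The *Plin5* window held AGGTCA itself, at positions -170 to -165 from the start. A second RefSeq window of *Plin5*, from another annotated start (chr17:56117249-56117548, minus strand), is not printed and held AGGACA at -34 to -29, AGGGCA at -2 to 3 and AGGTCA at 13 to 18. The match in the *Ehhadh* window lay on the opposite strand at -214 to -209, and that in the *Pdk4* window at -221 to -216. The half-site AGGTCA was found in 7 of the 29 members with a window (8 of their 34 windows, 23.5%) and in 16.3% of all 32851 promoter windows of this length. The relaxed half-site was found in 70.6% of the members' windows and in 57.2% of all. The full repeat, AGGTCANAGGTCA, was found in 0 of the members' windows and in 0.0396% of all, and the motif GACCACCCA, which GLI factors of the hedgehog pathway bind, in 0 of the members' windows and in 0.253% of all. Both strands were searched, and AGGTCA is contained in the relaxed form.

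To find out how the pathway differed between the genotypes, *Pparg-cKO* and control pools were compared under each treatment. Most members were lower in *Pparg-cKO* ureters, and among those that passed the test under both treatments the lowest were *Plin5*, a coat protein of lipid droplets, *Ehhadh*, an enzyme of peroxisomal beta-oxidation, and *Pdk4*, the kinase that shuts off pyruvate dehydrogenase when fat is burned. *Vnn1*, a pantetheinase that breaks down a product of coenzyme A, was the only member that was higher beyond the test. Under DMSO, 6 members fell and 1 rose at a limma adjusted p under 0.05. These are 16.7% and 2.78% of the 36 members, where 1.79% of all genes tested fell and 1.93% rose. Under purmorphamine, 5 members fell and 1 rose, 13.9% and 2.78% of the members, where 1.74% of all genes fell and 1.16% rose. The median log2 fold change of the 36 members was -0.27 under DMSO and -0.42 under purmorphamine, beside a median of all genes near 0, and 31 and 30 of the 36 were below 0. In the male and female pairs taken apart, the median was -0.26 and -0.31 under DMSO and -0.45 and -0.33 under purmorphamine.

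**Figure D1:**
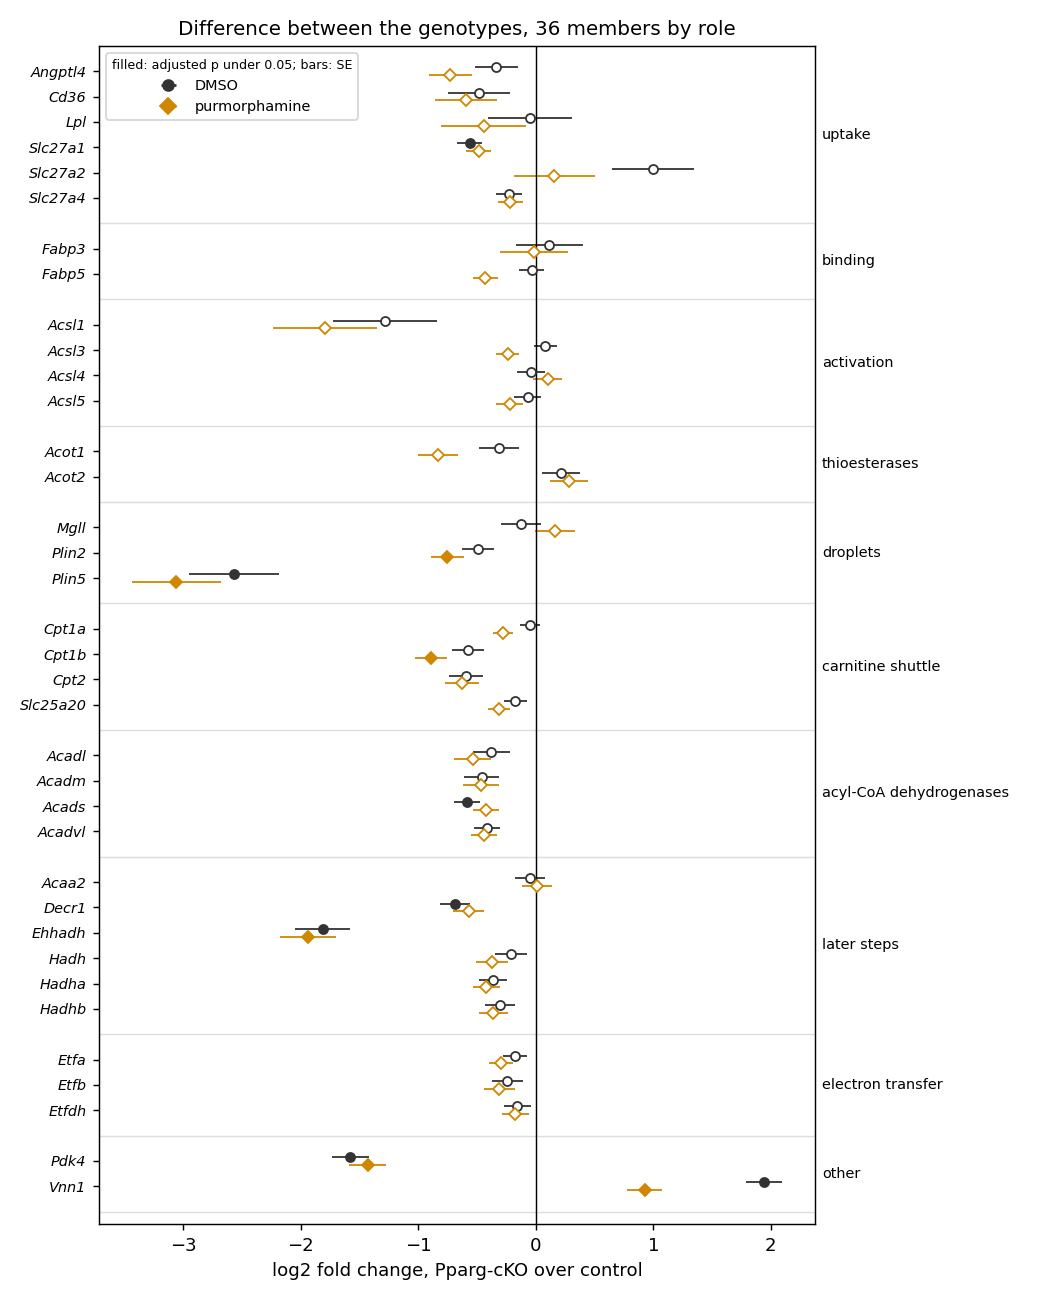
Log2 fold change of *Pparg-cKO* over control (x axis) for the 36 members, ordered by role on the y axis, under DMSO (circles) and purmorphamine (diamonds), with bars for the SE of the fit over 2 pools a group. Filled symbols passed an adjusted p of 0.05; most symbols lie left of 0, *Plin5* lowest at -2.57 and -3.06, and *Vnn1* lies highest at 1.94 and 0.93.

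The groups were also compared without a model. With both treatments pooled, the 4 *Pparg-cKO* pools lay under all 4 control pools for 18 of the 36 members (50%), while this held for 7.77% of all genes tested. They lay above all control pools for 1 member, *Vnn1* (2.78%), and for 5.59% of all genes. By the rule of intensity and fold that the study's methods describe, in which both pairs of a comparison must differ at least 1.5-fold, 5 members were lower and 1 higher under DMSO, beside 2.92% and 2.59% of all genes above the intensity threshold. Under purmorphamine, 6 were lower and 1 higher, beside 3.23% and 3.06%. The calls by limma rested on few pools. In each fit with an array left out, the groups of that array keep 1 pool each. Fewer members, and fewer of all genes, were called in each of these fits under both treatments. The median of the members stayed between -0.33 and -0.22 under DMSO and between -0.50 and -0.29 under purmorphamine in these fits.

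Among the uptake genes, 5 of 6 were below 0 in the comparison of the genotypes under both treatments, and *Slc27a1* passed the test. *Slc27a1* encodes a transport protein that brings long-chain fatty acids into the cell. Its level was 11.37 and 11.38 in the control DMSO pools, and 10.74 and 10.88 in the *Pparg-cKO* DMSO pools. In the purmorphamine pools, it was 11.47 and 11.28 for the controls and 10.83 and 10.94 for *Pparg-cKO*. The genotypes did not overlap, and *Slc27a1* fell by 0.56 ± 0.11 (SE, n = 2 pools a group; limma adjusted p = 0.0401) under DMSO, while under purmorphamine the log2 fold change of -0.49 did not pass the test (adjusted p = 0.0718). *Cd36* encodes a scavenger receptor and fatty acid translocase. Its level was 14.15 and 13.95 in the control and 13.84 and 13.30 in the *Pparg-cKO* pools under DMSO, and 13.85 and 13.94 in the control and 12.97 and 13.64 in the *Pparg-cKO* pools under purmorphamine. The lowest control pool and the highest *Pparg-cKO* pool were closer to each other than the *Pparg-cKO* pools among themselves, and the log2 fold changes of -0.48 and -0.59 had adjusted p-values of 0.47 and 0.357.

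*Angptl4*, a secreted inhibitor of lipoprotein lipase and a well known PPAR target, was at 14.33 and 13.96 in the control and at 13.75 and 13.87 in the *Pparg-cKO* DMSO pools. In the purmorphamine pools, it was at 14.38 and 14.10 for the controls and at 13.33 and 13.70 for *Pparg-cKO*. All *Pparg-cKO* pools were under all control pools, but the log2 fold changes of -0.34 (limma adjusted p = 0.463) and -0.73 (adjusted p = 0.103) did not pass the test. *Lpl*, the lipase at the vessel wall, was at 16.03 and 16.90 in the control and 16.48 and 16.36 in the *Pparg-cKO* DMSO pools, and at 16.63 and 16.01 in the control and 15.56 and 16.20 in the *Pparg-cKO* pools with purmorphamine. The genotypes overlapped, and the male and female pairs of this probe went opposite ways under both treatments. A second, less bright *Lpl* probe was below 0 in both pairs under both treatments. Its log2 fold changes of -0.44 (limma adjusted p = 0.678) and -0.72 (adjusted p = 0.405) did not pass the test. *Slc27a2*, a transport protein of liver and kidney, was the only member that was not well above background in every pool, and reached that level in 3 of 8. Both *Pparg-cKO* DMSO pools were among the 3, and its level there was at least 2.76-fold higher than in the *Pparg-cKO* pools with purmorphamine, where it was not well above background. Since *Slc27a2* entered the test through the group in which it was highest, this fold is a description with no test.

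Of the genes that bind and activate fatty acids, none passed the test between the genotypes. *Acsl1*, the main acyl-CoA synthetase of fat and muscle, had the lowest fold change among those that failed it. Its level was 14.80 and 15.30 in the control and 13.97 and 13.57 in the *Pparg-cKO* DMSO pools, and 15.25 and 15.17 in the control and 12.70 and 14.13 in the *Pparg-cKO* pools with purmorphamine. The genotypes did not overlap, and by the rule of intensity and fold *Acsl1* was lower under both treatments, but the spread between its pools was wide. The log2 fold change was -1.28 ± 0.44 under DMSO (SE, n = 2 pools a group; limma adjusted p = 0.222) and -1.79 ± 0.44 under purmorphamine (adjusted p = 0.101). The latter was -2.50 without the female *Pparg-cKO* array and -1.08 without the male *Pparg-cKO* array. The other 3 synthetases, *Acsl3*, *Acsl4* and *Acsl5*, differed between the genotypes by -0.24 to 0.10 over both treatments.

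The droplet genes held the member with the lowest fold change of all. *Plin5* coats lipid droplets in tissues that oxidize fat and tethers them to mitochondria. Its level was 10.01 and 9.19 in the control DMSO pools and 6.73 and 7.34 in the *Pparg-cKO* DMSO pools. Under purmorphamine, the level was 10.13 and 9.85 in the control and 6.49 and 7.38 in the *Pparg-cKO* pools. The lowest control pool was above the highest *Pparg-cKO* pool by more than any pair of pools of a genotype differed, and *Plin5* was well above background in all 8 by the scanner's own flag. On the scaled processed signals, however, both male *Pparg-cKO* pools lay at the floor of 15, so that the size of the difference is less certain than its direction. It fell by 2.57 ± 0.38 under DMSO (SE, n = 2 pools a group; limma adjusted p = 0.0177), and the log2 fold change under purmorphamine was -3.06 ± 0.38 (adjusted p = 0.0157). Over the alternatives run, these log2 fold changes lay between -3.45 and -2.16 and between -4.23 and -2.61, the lowest log2 fold change of each with processed signals. With all 4 arrays kept, *Plin5* lost its call under DMSO with processed signals, and at no setting under purmorphamine. Under both treatments it also lost the call in some fits with an array left out. *Plin2*, the coat protein found on droplets of most cells, was at 15.50 and 15.33 in the control and 14.88 and 14.97 in the *Pparg-cKO* DMSO pools, and at 15.68 and 15.45 in the control and 14.67 and 14.96 in the *Pparg-cKO* pools with purmorphamine. It fell by 0.75 ± 0.14 under purmorphamine (adjusted p = 0.0423), and its log2 fold change under DMSO was -0.49 ± 0.14 (adjusted p = 0.133). *Mgll*, the lipase of the last step of triglyceride breakdown, did not pass the test between the genotypes (-0.13 and 0.16).

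**Figure D2:**
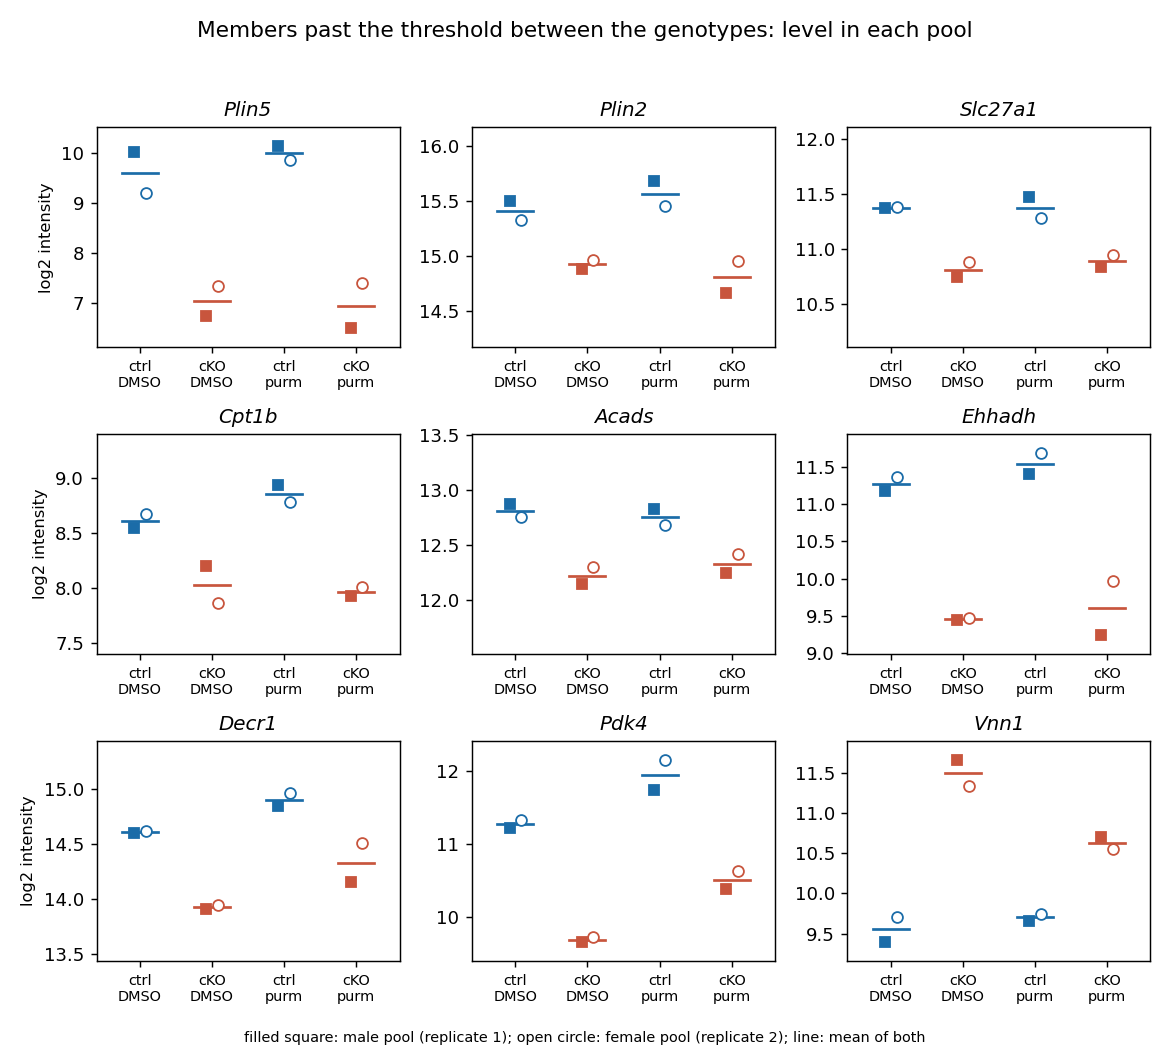
Log2 intensity (y axes, each panel its own range) in the 8 pools for the 9 members past the threshold between the genotypes, by group on the x axes, with control in blue and *Pparg-cKO* in red. Filled squares are male pools, open circles female pools and lines the mean of both; in each panel the 4 *Pparg-cKO* pools lie apart from the 4 control pools, above them for *Vnn1* and below them for the others.

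The carnitine shuttle carries activated long-chain fatty acids across the inner mitochondrial membrane. *Cpt1b*, the muscle form of its rate-limiting enzyme, was at 8.54 and 8.67 in the control and 8.20 and 7.86 in the *Pparg-cKO* DMSO pools. Under purmorphamine, it was at 8.94 and 8.78 in the control and 7.92 and 8.01 in the *Pparg-cKO* pools. The genotypes did not overlap; *Cpt1b* fell by 0.89 ± 0.14 under purmorphamine (SE, n = 2 pools a group; limma adjusted p = 0.0273), and its log2 fold change under DMSO was -0.58 ± 0.14 (adjusted p = 0.0804). *Cpt1a*, the form of liver and most other tissues, was at 14.53 and 14.49 in the control and 14.43 and 14.49 in the *Pparg-cKO* DMSO pools, and at 14.80 and 14.91 in the control and 14.60 and 14.56 in the *Pparg-cKO* pools with purmorphamine. The lowest control DMSO pool (14.493) and the highest *Pparg-cKO* DMSO pool (14.487) were nearly alike. The log2 fold changes of *Cpt1a*, -0.05 (limma adjusted p = 0.871) and -0.28 (adjusted p = 0.175), did not pass the test.

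The acyl-CoA dehydrogenases open each round of mitochondrial oxidation, and the 4 of them differ in the chain length they take. All 4 were lower in *Pparg-cKO* pools in both pairs under both treatments, within a narrow range of log2 fold changes, from -0.59 to -0.38 under DMSO and from -0.54 to -0.42 under purmorphamine. *Acads*, the short-chain enzyme, passed the test under DMSO. Its level was 12.87 and 12.75 in the control and 12.14 and 12.30 in the *Pparg-cKO* DMSO pools, and 12.83 and 12.68 in the control and 12.24 and 12.42 in the *Pparg-cKO* pools with purmorphamine. It fell by 0.59 ± 0.11 (SE, n = 2 pools a group; limma adjusted p = 0.0414) under DMSO, and the value under purmorphamine was -0.42 (adjusted p = 0.122). *Acadm*, the medium-chain enzyme, was at 14.50 and 14.85 in the control and 14.26 and 14.17 in the *Pparg-cKO* DMSO pools, and at 14.73 and 14.89 in the control and 14.22 and 14.47 in the *Pparg-cKO* pools with purmorphamine. Its genotypes did not overlap, with log2 fold changes of -0.46 (adjusted p = 0.197) and -0.47 (adjusted p = 0.193).

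Of the genes of the later steps, *Ehhadh* and *Decr1* passed the test. *Ehhadh* encodes the bifunctional enzyme of peroxisomes, which hydrates and dehydrogenates the chain. Its level was 11.17 and 11.37 in the control DMSO pools and 9.44 and 9.47 in the *Pparg-cKO* DMSO pools. With purmorphamine, it was 11.40 and 11.69 in the control and 9.24 and 9.97 in the *Pparg-cKO* pools. The male and female DMSO pools of a genotype were nearly alike beside the gap between the genotypes. *Ehhadh* fell by 1.81 ± 0.23 under DMSO (SE, n = 2 pools a group; limma adjusted p = 0.0114), with a log2 fold change of -1.94 ± 0.23 under purmorphamine (adjusted p = 0.0151), to 3.51-fold and 3.83-fold lower levels. *Decr1*, which prepares unsaturated fatty acids for oxidation, was at 14.60 and 14.62 in the control and 13.91 and 13.94 in the *Pparg-cKO* DMSO pools, and at 14.84 and 14.97 in the control and 14.16 and 14.51 in the *Pparg-cKO* pools with purmorphamine. It fell by 0.69 ± 0.13 (adjusted p = 0.0401) under DMSO, and the value under purmorphamine was -0.57 (adjusted p = 0.0798). *Hadha*, a subunit of the mitochondrial trifunctional protein, was at 11.50 and 11.43 in the control and 10.98 and 11.22 in the *Pparg-cKO* DMSO pools, and at 11.48 and 11.60 in the control and 11.04 and 11.20 in the *Pparg-cKO* pools with purmorphamine. Its genotypes did not overlap, and its log2 fold changes of -0.36 (adjusted p = 0.183) and -0.42 (adjusted p = 0.134) did not pass the test. The 3 electron transfer genes, *Etfa*, *Etfb* and *Etfdh*, were lower in both pairs of both treatments, with log2 fold changes of -0.31 to -0.16, and none of them passed the test.

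*Pdk4* steers the cell from glucose to fat by inactivating pyruvate dehydrogenase. Its level was 11.22 and 11.32 in the control DMSO pools and 9.66 and 9.72 in the *Pparg-cKO* DMSO pools. With purmorphamine, it was 11.73 and 12.15 in the control and 10.38 and 10.64 in the *Pparg-cKO* pools. It was lower in all *Pparg-cKO* pools and fell by 1.58 ± 0.16 under DMSO (SE, n = 2 pools a group; limma adjusted p = 0.00555), and its log2 fold change under purmorphamine was -1.43 ± 0.16 (adjusted p = 0.0116). *Vnn1* went the other way. Its level was 9.39 and 9.71 in the control DMSO pools and 11.66 and 11.34 in the *Pparg-cKO* DMSO pools, and with purmorphamine 9.65 and 9.75 in the control and 10.70 and 10.55 in the *Pparg-cKO* pools. It rose by 1.94 ± 0.15 under DMSO (adjusted p = 0.00265), a 3.85-fold higher level, and by 0.93 ± 0.15 under purmorphamine (adjusted p = 0.0333), a 1.9-fold higher level.

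The thioesterases release free fatty acids from coenzyme A. *Acot1*, the cytosolic enzyme, was at 12.87 and 12.88 in the control and 12.47 and 12.66 in the *Pparg-cKO* DMSO pools, and at 13.55 and 13.88 in the control and 12.68 and 13.09 in the *Pparg-cKO* pools with purmorphamine. Within each treatment its genotypes did not overlap, but the log2 fold changes of -0.31 (limma adjusted p = 0.473) and -0.83 (adjusted p = 0.061) did not pass the test, while it was lower under purmorphamine by the rule of intensity and fold. *Acot2*, its mitochondrial relative, differed by 0.22 and 0.28 and did not pass either; *Acot1* and *Acot2* are close copies, and whether their probes cross-hybridize was not tested. The 16 members not named by their pools differed between the genotypes by -0.60 (*Cpt2*) to 1.00 (*Slc27a2*) under DMSO and by -0.63 (*Cpt2*) to 0.28 (*Acot2*) under purmorphamine, and none of them passed the test. Of the 10 members with more than 1 tested probe, all tested probes of a member agreed in direction between the genotypes under DMSO. Under purmorphamine, a second *Cpt1a* probe gave 0.043 where the brightest gave -0.28. The second *Decr1* probe gave -0.79 under DMSO, which did not pass the test over all probes (limma adjusted p = 0.0529), and the second *Acsl1* probe gave -1.88 and -2.28 under DMSO and purmorphamine.

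Other genes of the pathway were taken from lists by function. Of 15 genes of peroxisomal oxidation and ketone bodies, all 15 were below 0 in *Pparg-cKO* pools under both treatments, with medians of -0.44 and -0.49. Of these, *Acaa1b*, a peroxisomal thiolase, passed the test under both treatments and *Bdh1*, a ketone body dehydrogenase, under purmorphamine. *Acaa1b* was at 13.47 and 13.54 in the control and 12.10 and 12.10 in the *Pparg-cKO* DMSO pools, and it fell by 1.41 (limma adjusted p = 0.00301) under DMSO, with a log2 fold change of -1.82 (adjusted p = 0.00211) under purmorphamine. Of 15 other genes of mitochondrial oxidation, 1 passed the test, *Acad11*, with log2 fold changes of -0.78 (adjusted p = 0.0113) and -0.85 (adjusted p = 0.014). Of 5 lipolysis genes, 3 fell under DMSO, namely *Pnpla2* and *Lipe*, the lipases of the first steps, and *G0s2*, an inhibitor of *Pnpla2* protein. *Lipe* and *G0s2* fell under purmorphamine as well, while *Pnpla2* was at -0.89 (adjusted p = 0.0681). Of 18 other PPAR targets that could be tested, *Aqp7* and the member *Pdk4* fell under both treatments. *Cyp4a12a* was well above background in both pools of the *Pparg-cKO* DMSO group only, at 6.95 and 7.24, and in neither control DMSO pool, so that it was tested through the group in which it was high and its difference is not counted. Of 9 receptors and coactivators, *Ppara* fell under both treatments and *Ppard* under DMSO (-0.49, adjusted p = 0.0415), with a value of -0.35 under purmorphamine that did not pass the test (adjusted p = 0.12). *Ppara*, the receptor best known for fatty acid oxidation, was at 10.64 and 10.98 in the control and 9.67 and 9.69 in the *Pparg-cKO* DMSO pools, and at 11.07 and 11.41 in the control and 9.81 and 10.26 in the *Pparg-cKO* pools with purmorphamine. Its log2 fold changes were -1.13 (adjusted p = 0.0299) and -1.20 (adjusted p = 0.031).

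The 10 fat cell markers moved with the genotype and with 1 pool. All 10 were below 0 in *Pparg-cKO* over control under both treatments, and *Lipe* alone of them passed the test. Between 9 and 10 of them were well above background in each pool. Their log2 summed level was 18.18 and 18.61 in the control and 17.42 and 16.91 in the *Pparg-cKO* DMSO pools, and 18.21 and 17.86 in the control and 14.72 and 17.35 in the *Pparg-cKO* pools with purmorphamine. The male *Pparg-cKO* pool with purmorphamine thus stood apart, with a difference of -2.62 to the female pool. In that pool 30 of the 36 members were also lower than in the female pool, with a median difference of -0.23, where the male pool was lower for 22 or 23 members in each of the other groups. The difference of the male to the female pool was -1.42 for *Acsl1*, -0.90 for *Plin5*, -0.73 for *Ehhadh*, -0.68 for *Cd36* and -0.64 for *Lpl*, the largest of that group. In the control and *Pparg-cKO* DMSO groups, the difference of the summed fat cell markers was -0.43 and 0.51. There it was -0.50 and 0.40 for *Acsl1*, 0.82 and -0.60 for *Plin5* and -0.19 and -0.02 for *Ehhadh*. For *Cd36* it was 0.20 and 0.54, and for *Lpl* -0.87 and 0.13. The part of fat cells in the members' differences was not tested. Without the male *Pparg-cKO* array, the log2 fold change between the genotypes under purmorphamine was -2.61 for *Plin5* (limma adjusted p = 0.0754), -1.57 for *Ehhadh* (adjusted p = 0.0632), -1.30 for *Pdk4* (adjusted p = 0.114) and -1.08 for *Acsl1* (adjusted p = 0.212). Under DMSO it was -2.27 for *Plin5* (adjusted p = 0.0506), -1.80 for *Ehhadh* (adjusted p = 0.0178), -1.55 for *Pdk4* (adjusted p = 0.0374) and -1.48 for *Acsl1* (adjusted p = 0.0562).

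**Figure D3:**
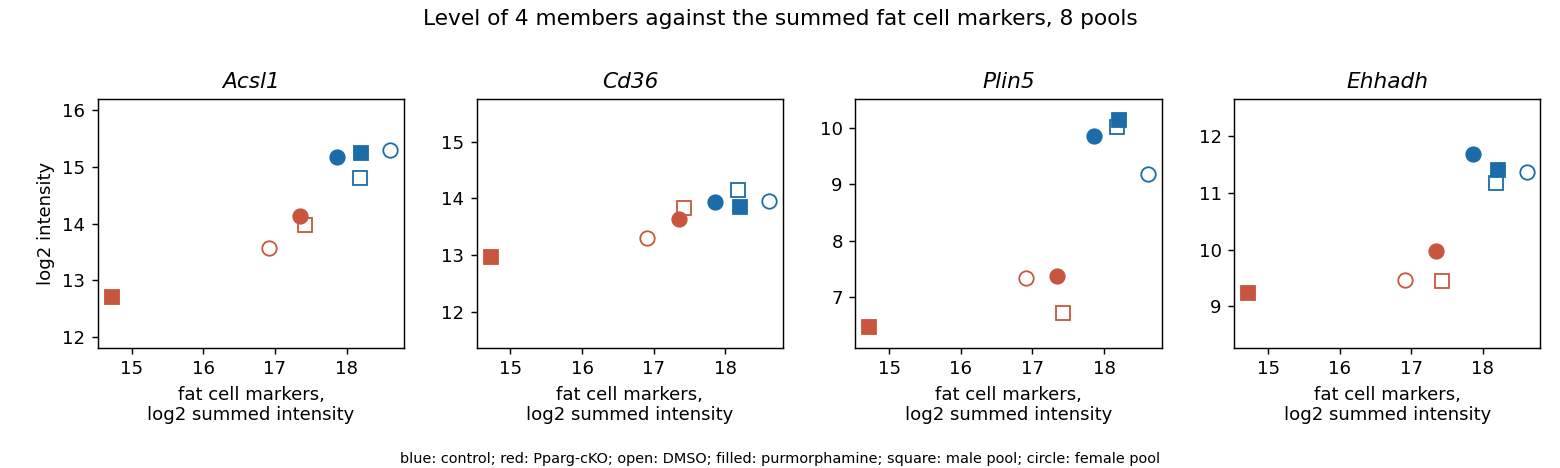
Log2 intensity of 4 members (y axes, all spanning the same number of log2 units) against the log2 summed intensity of the 10 fat cell markers (x axes) in the 8 pools, with control in blue, *Pparg-cKO* in red, DMSO open and purmorphamine filled. The male *Pparg-cKO* pool with purmorphamine lies far left at 14.72, and all 4 members, which were picked for this figure, are lowest in that pool. Of the other members called lower between the genotypes, *Plin2* was lowest there too, and *Pdk4*, *Decr1*, *Acads*, *Slc27a1* and *Cpt1b* were not.

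Markers of other cell types also moved with the genotype. Of the 10 urothelium markers, 4 fell under DMSO, namely *Krt20* (-3.70), *Upk3b* (-1.83), *Upk1a* (-1.34) and *Upk1b* (-1.31), most of them known from superficial cells. Under purmorphamine, 3 fell, *Krt20* (-2.42), *Trp63* (-1.11) and *Upk3b* (-1.07). The median of the 10 was -0.73 under DMSO and -0.59 under purmorphamine. The summed urothelium markers were at 18.33 to 18.53 in the control and 17.93 to 18.15 in the *Pparg-cKO* DMSO pools, and at 18.82 to 19.01 and 18.28 to 18.39 with purmorphamine, and all 10 of them were well above background in each pool. The endothelium markers were higher in *Pparg-cKO* DMSO pools (13.87 to 13.96) than in control DMSO pools (13.02 to 13.63). They were also higher in the *Pparg-cKO* (14.84 to 15.03) than in the control pools (14.36 to 14.45) with purmorphamine. The macrophage markers overlapped between the genotypes under both treatments. The summed kidney proximal tubule markers were at 13.90 to 14.02 in the control and 14.16 to 14.28 in the *Pparg-cKO* DMSO pools. With purmorphamine they were at 13.325 to 13.596 in the control and 13.151 to 13.561 in the *Pparg-cKO* pools. Of these 8 markers, 3 to 7 were well above background in a pool. Under DMSO, 2 of the 6 tested were above 0 between the genotypes and 4 below 0, and 0 passed the test. The part of these cell types in the members' differences was not tested.

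To find out whether activation of SHH signaling moved the same genes, the purmorphamine pool was compared with the DMSO pool of the same array. Purmorphamine moved 1 member past the test in control and 5 in *Pparg-cKO* ureters. *Acsl4*, an acyl-CoA synthetase that prefers arachidonic acid, fell in both genotypes, and *Mgll*, *Acaa2* and *Pdk4* rose in *Pparg-cKO* ureters while *Vnn1* fell. In control ureters, 0 members rose and 1 fell (2.78%), where 0.331% of all genes rose and 0.979% fell. At an unadjusted p under 0.05, 8 of the 36 members were higher and 1 of the 36 was lower, beside 9.75% and 9.79% of all genes. In *Pparg-cKO* ureters, 3 members rose (8.33%) and 2 fell (5.56%), where 1.88% of all genes rose and 2.83% fell. At an unadjusted p under 0.05, 5 of the 36 members were higher and 6 of the 36 lower, beside 9.8% and 12.3% of all genes. By the rule of intensity and fold, 1 member was higher and 1 lower in control ureters, beside 2.76% and 3.69% of all genes, and 2 were higher and 2 lower in *Pparg-cKO* ureters, beside 3.88% and 4.79%. The median log2 fold change of the members was 0.15 in control and 0.047 in *Pparg-cKO* ureters, and in *Pparg-cKO* ureters the male pair alone gave -0.082 and the female pair 0.11. No call of this comparison held when an array of its own genotype was left out, where 1 array of that genotype remains. Fewer of all genes were called in those fits too.

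**Figure D4:**
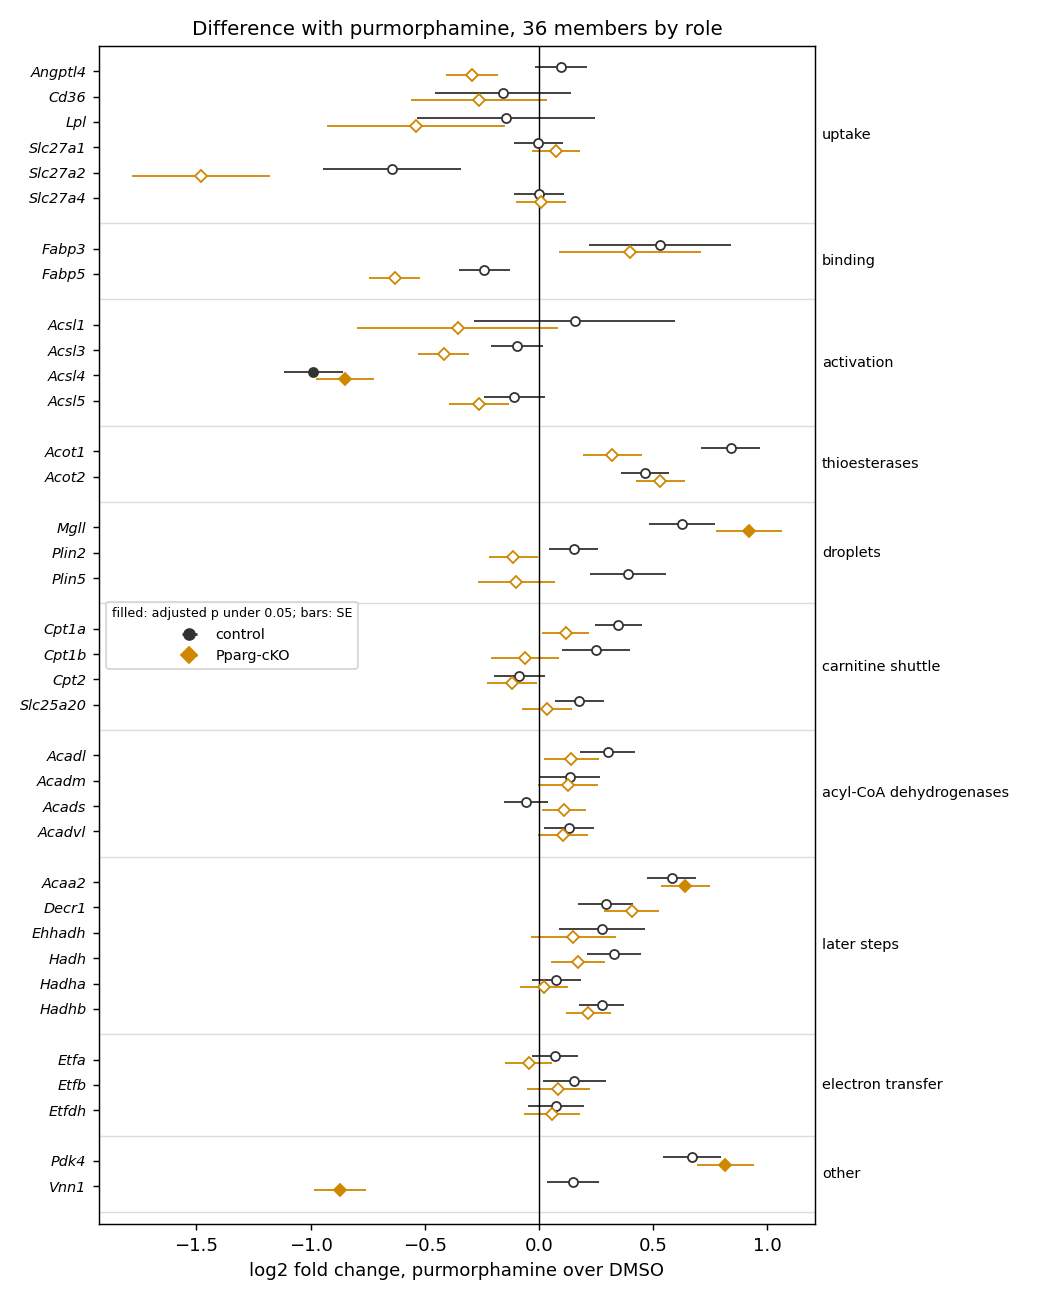
Log2 fold change of purmorphamine over DMSO (x axis) for the 36 members, ordered by role on the y axis, in control (circles) and *Pparg-cKO* ureters (diamonds), with bars for the SE of the fit over 2 arrays a genotype. Filled symbols passed an adjusted p of 0.05; *Acsl4* lies at -0.99 and -0.85 in the 2 genotypes, and *Vnn1* at 0.15 in control and -0.87 in *Pparg-cKO* ureters.

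*Acsl4* was at 14.11 and 14.17 in the control and 14.08 and 14.13 in the *Pparg-cKO* DMSO pools. With purmorphamine, it was at 13.21 and 13.09 in the control and 13.40 and 13.11 in the *Pparg-cKO* pools. The treatments were apart in both genotypes by more than the pools of a treatment differed. *Acsl4* fell by 0.99 ± 0.13 in control (SE, n = 2 arrays; limma adjusted p = 0.0498), and its log2 fold change in *Pparg-cKO* ureters was -0.85 ± 0.13 (adjusted p = 0.04), a 1.98-fold and a 1.8-fold lower level. The summed macrophage markers moved the same way. In control pools they lay between 17.57 and 17.87 under DMSO and between 16.87 and 17.33 with purmorphamine, and in *Pparg-cKO* pools between 17.54 and 17.78 and between 17.07 and 17.12. All 7 macrophage markers on the array were below 0 in both genotypes, and their part in the lower level of *Acsl4* was not tested.

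*Mgll* was at 14.82 and 15.22 in the control and 14.86 and 14.92 in the *Pparg-cKO* DMSO pools, and at 15.64 and 15.67 in the control and 15.62 and 16.00 in the *Pparg-cKO* pools with purmorphamine. It rose by 0.92 ± 0.14 in *Pparg-cKO* ureters (SE, n = 2 arrays; limma adjusted p = 0.0428), and the value in control ureters was 0.63 ± 0.14 (adjusted p = 0.119). All 4 purmorphamine pools were above all 4 DMSO pools, and the other 2 tested *Mgll* probes passed in *Pparg-cKO* ureters too (0.76 and 0.88). *Acaa2*, the mitochondrial thiolase that cuts the chain at the end of each round, was at 15.75 and 16.01 in the control and 15.79 and 15.88 in the *Pparg-cKO* DMSO pools, and at 16.42 and 16.51 in the control and 16.36 and 16.58 in the *Pparg-cKO* pools with purmorphamine. Its treatments did not overlap, it rose by 0.64 ± 0.11 in *Pparg-cKO* ureters (adjusted p = 0.047), and the value in control ureters was 0.58 ± 0.11 (adjusted p = 0.0873). *Pdk4*, with the levels given above, rose by 0.82 ± 0.12 in *Pparg-cKO* ureters (adjusted p = 0.0407), and the value in control ureters was 0.67 ± 0.12 (adjusted p = 0.0883). Its *Pparg-cKO* pools with purmorphamine, at 10.38 and 10.64, remained under the control DMSO pools at 11.22 and 11.32. *Acot1* was higher with purmorphamine in control ureters by the rule of intensity and fold, with a log2 fold change of 0.84 ± 0.13 that did not pass limma's test (adjusted p = 0.0678). Of the 10 urothelium markers, 6 rose with purmorphamine in *Pparg-cKO* ureters, from 0.75 (*Grhl3*) to 2.43 (*Krt20*), and 1 in control ureters, *Upk1b* (0.89). Both smooth muscle and endothelium markers also had higher summed levels with purmorphamine, smooth muscle at 17.97 to 18.42 under DMSO and 18.89 to 18.91 with purmorphamine in control pools, and the part of these cell types in the members' differences with purmorphamine was not tested.

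*Vnn1* fell by 0.87 ± 0.11 with purmorphamine in *Pparg-cKO* ureters (SE, n = 2 arrays; limma adjusted p = 0.0317), while its log2 fold change in control ureters was 0.15 ± 0.11 (adjusted p = 0.561). The *Pparg-cKO* arrays gave -0.96 and -0.78, and the control arrays 0.26 and 0.04. Its *Pparg-cKO* pools with purmorphamine lay between the *Pparg-cKO* DMSO pools and the control pools. The difference of the effects, -1.02, had the lowest unadjusted p of the members (0.00156) and did not pass after adjustment over all genes (adjusted p = 0.879).

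**Figure D5:**
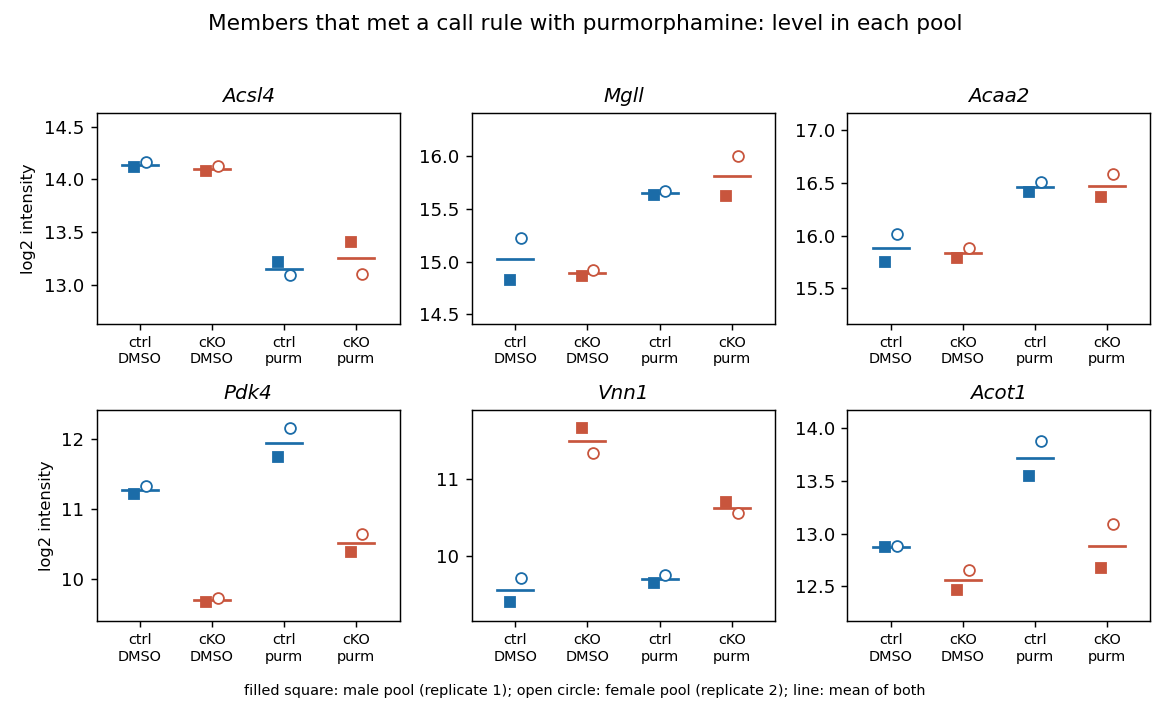
Log2 intensity (y axes, each panel its own range) in the 8 pools for the 6 members that met a call rule with purmorphamine, by group on the x axes, with control in blue and *Pparg-cKO* in red. Filled squares are male pools, open circles female pools and lines the mean of both; *Acsl4* is lower with purmorphamine in both genotypes, *Mgll* and *Acaa2* are higher, and *Vnn1* lies between 10.55 and 11.66 in the *Pparg-cKO* pools.

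The test of whether purmorphamine acted differently in the genotypes called 0 members and 0 of all genes in either direction (0%). At an unadjusted p under 0.05, 2 members had a lower effect in *Pparg-cKO* ureters, *Vnn1* and *Acot1*, and 0 a higher one, beside 1.72% and 1.59% of all genes. The comparisons share pools: the *Pparg-cKO* DMSO pools serve both the difference between the genotypes and the effect of purmorphamine. The members that fell in *Pparg-cKO* ureters under DMSO are therefore given with both values only. For *Plin5*, the difference between the genotypes was -2.57 on the log2 scale and the effect of purmorphamine in *Pparg-cKO* ureters -0.10. The same values were -1.81 and 0.15 for *Ehhadh*, -0.69 and 0.41 for *Decr1*, -0.59 and 0.11 for *Acads* and -0.56 and 0.07 for *Slc27a1*. Of the 6 members that fell, *Pdk4* alone passed the test with purmorphamine in *Pparg-cKO* ureters.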

How the data were processed

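Total RNA of 8 pools of sex-sorted ureters was labelled and hybridized to 4 two-color Agilent arrays on 1 slide. The members and lists were chosen with earlier results of these data known. Per the file headers, mean and local background intensity per spot were read with Agilent Feature Extraction (12.2.0.7 in the headers, 10.7.3.1 in the submitters' processing notes). The deposited log10 ratio of red over green served only to check that the red and green channels were read the right way round. It could not check which dye held DMSO. The deposited score of the value table is a signed fold of purmorphamine over DMSO.

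Intensities were corrected by normexp (offset 50) and loess in limma 3.58.1 (R 4.3.3), spots of a probe were averaged, and Aquantile was applied between arrays. Differences between the genotypes came from a fit of separate channels (lmscFit, intraspot correlation 0.057 from 4000 probes), purmorphamine and the interaction by the ratios within arrays, with 1 spread for all groups and no replicate block. Tested were 27466 probes that stood well above background in each pool of at least 1 group, the brightest stood for a gene, and p was adjusted by Benjamini-Hochberg (threshold 0.05). Fits that leave out an array or add a block use the same intraspot correlation. The rule of the methods took processed signals, a 75th percentile of 1500, a floor of 15, an intensity above 100 and a fold of at least 1.5 in both pairs. Levels are given for the 20 members that met a rule or were picked as well known for their role, and the other 16 by range. Nothing states separate cultures beyond the pools, so p-values measure the spread between 2 pools. The fits were also run on simulated data with independent noise in each pool. Such data hold no effect of sex or dye and no error shared by an array, so they could not check for these.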

Additional observations from a re-analysis of the deposited data

Results flagged for a closer look

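For 4 of the 36 members, purmorphamine moved both control arrays one way and both *Pparg-cKO* arrays the opposite way. How many of all genes did so was not counted, so this count has no background to be read against. Some of the steps were small, for *Acads* -0.04 and -0.07 in the control and 0.10 and 0.12 in the *Pparg-cKO* arrays. The difference of the log2 effects, *Pparg-cKO* minus control, was -1.02 for *Vnn1* (limma adjusted p = 0.879), -0.39 for *Angptl4*, -0.26 for *Plin2* and 0.17 for *Acads* (adjusted p = 1 for each of these 3), so that none passed the test of the difference over all genes.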

How the results depend on the processing

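Only 2 pools a group limit every call. The direction of the 45 fold changes given for single members held in 431 of 433 alternative values; the exceptions were *Lpl* under DMSO without the female control array (0.38) and without the female *Pparg-cKO* array (0.014), in a range of -0.48 to 0.38 over the left-out arrays. Of the 433, 90 lost the call and 2 gained it. For the genotypes under DMSO, the 7 members called became 3 with processed signals. With an array left out the count fell, as it did for all genes, and the median ran from -0.33 to -0.22. Under purmorphamine, the 6 fell in the same way with an array left out (median -0.50 to -0.29). For purmorphamine in control ureters, the 1 call became 0 with processed signals, without the dim-probe filter, with the replicate block and with the value table. It was lost without either control array as well, where fewer of all genes were called too. In *Pparg-cKO* ureters, the 5 calls became 0 with processed signals, without the filter and with the value table. They became 8 with quantile and scale normalization and 2 with the replicate block. None was left without either *Pparg-cKO* array, where fewer of all genes were called too. The median, 0.047, was -0.082 without the female *Pparg-cKO* array and 0.11 without the male. The replicate numbers share only sex and dye: deviations of same-numbered pools correlated by -0.15 under DMSO and 0.47 under purmorphamine, the block called 5 members between the genotypes under either treatment (all 5 among the 7 under DMSO, and 4 among the 6 under purmorphamine, where *Vnn1*, adjusted p = 0.0551, and *Plin2*, 0.0717, lost the call and *Acot1*, 0.0374, gained it), and the crossed pairing, added after seeing the data, 6 under DMSO. At a fold of at least 2, the rule of intensity and fold still counted 4 members between the genotypes under purmorphamine. It counted 0 with purmorphamine in either genotype. With replicate 1 or 2 alone, its counts between the genotypes were 10 to 11 and 8 to 16. With purmorphamine they were 4 to 7 and 7 to 11. A rule on 1 pair is easier to meet than one on both pairs, for all genes as for the members. The share of all genes at these settings is not given here, so these counts have no background to be read against. The interaction called 0 members in each alternative run. Where a count moved, the cause was not tested.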
